A study of Mus musculus with 12 samples.

Results

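Tetherin (Bst2) and 9 further interferon-induced effector genes, Rtp4, Ifitm3, Xaf1, Ifi27, Ifi44, Ifi35, Lgals3bp, Tnfsf10 and Trim30a, were followed through 12 RNA libraries of mouse hypothalamus. They are 10 of the 52638 entries of the count table, found by matching their Ensembl identifiers to GENCODE names on GRCm38. The names were chosen with the genotype difference in bead-bound RNA known, so their values in that comparison are a description and carry no test. All 10 passed the filter on low counts in bead-bound RNA, where 17354 genes were tested, and 9 passed it in supernatant, where Ifi44 had too few counts.

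The study compared the hypothalamus of adult mice labelled Stat3KO (LepRb-Cre/Cre with Stat3-flox/flox and R26-GFP:L10a/GFP:L10a) with that of mice labelled Ctrl (LepRb-Cre/Cre with R26-GFP:L10a/GFP:L10a), to see which transcripts of leptin-responsive cells depend on the transcription factor STAT3. Both genotypes carry 2 copies of Cre, which is made only where the long leptin receptor LepRb is expressed, and 2 copies of a ribosomal protein L10a tagged with green fluorescent protein; the floxed Stat3 alleles are the difference between them. From each pool of 5 to 8 mice, RNA on the tagged ribosomes was pulled down on beads (bead-bound RNA, enriched for RNA of LepRb cells). The RNA left behind was kept as supernatant, which comes mostly from cells without Cre. Markers of other cell types were counted in both fractions. With 3 pools per genotype this gave 4 groups of 3 libraries, and every value given is from n = 3 pools in its group. Levels are CPM, counts relative to the library's total after scaling with edgeR's TMM factors, fold changes are log2 with their standard error (SE), and a gene passed the test where edgeR's quasi-likelihood test gave an adjusted p under 0.05. In such bulk RNA, fewer cells of a type and less RNA per cell cannot be told apart.

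Interferons are secreted proteins, the type I forms being made by cells that sense viral nucleic acid. They bind paired receptors on neighbouring cells, IFNAR for the type I forms and IFNGR for interferon gamma. The receptors' JAK kinases phosphorylate transcription factors of the STAT family, which bind interferon-stimulated response elements (ISRE) together with IRF9, or the gamma-activated sequence (GAS), a palindrome close to the one STAT3 binds. The induced effectors act at many steps: at the cell membrane (tetherin), in endosomes (Ifitm3), in the cytoplasm, on apoptosis (Xaf1, Tnfsf10) and outside the cell (Lgals3bp).

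The window around the transcription start was available for 8 of the 10 genes, from 250 bases before to 50 bases after the RefSeq start on GRCm38.p6, with 2 starts for Trim30a; Rtp4 and Ifi27 had none. Each window was searched on both strands for the ISRE letters (GAAA, any 2 bases, GAAA), the GAS letters TTCNNNGAA and the STAT3-type letters TTCCNGGAA, the last being a stricter form of the GAS letters. Among the 9 windows, 4 held the ISRE letters, 3 the GAS letters and 1 the STAT3-type letters, while 3.44%, 8.30% and 1.15% of all 32851 mouse windows held them. A match of letters is a description and not evidence of a bound site. Only exact letters were counted, so a window without a match may still hold a similar sequence. Windows of 3 genes are printed because they belong to the gene with the largest bead-bound difference (Bst2), to a gene with matches and little difference (Ifitm3), and to a gene with no match and a large difference (Xaf1). Each runs 5′ to 3′ on the gene's strand, and capitals mark the matches.
Bst2 (chr8:71537423-71537722, minus strand): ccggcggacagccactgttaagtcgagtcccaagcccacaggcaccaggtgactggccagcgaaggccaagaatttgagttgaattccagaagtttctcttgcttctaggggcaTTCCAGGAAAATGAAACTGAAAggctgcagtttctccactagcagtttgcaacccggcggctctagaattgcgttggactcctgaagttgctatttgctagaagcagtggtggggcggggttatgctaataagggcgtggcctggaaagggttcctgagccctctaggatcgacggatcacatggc
Ifitm3 (chr7:141010695-141010994, minus strand): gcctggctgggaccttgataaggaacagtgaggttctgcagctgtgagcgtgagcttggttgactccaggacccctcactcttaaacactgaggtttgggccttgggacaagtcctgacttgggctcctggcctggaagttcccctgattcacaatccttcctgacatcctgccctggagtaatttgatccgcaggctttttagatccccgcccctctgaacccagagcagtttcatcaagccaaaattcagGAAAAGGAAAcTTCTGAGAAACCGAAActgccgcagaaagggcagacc
Xaf1 (chr11:72301379-72301678, plus strand): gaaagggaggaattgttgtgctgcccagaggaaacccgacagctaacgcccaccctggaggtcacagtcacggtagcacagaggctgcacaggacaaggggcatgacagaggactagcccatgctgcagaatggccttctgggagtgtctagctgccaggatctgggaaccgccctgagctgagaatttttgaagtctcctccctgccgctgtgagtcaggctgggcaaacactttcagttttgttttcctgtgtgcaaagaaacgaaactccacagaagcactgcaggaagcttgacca
In the Bst2 window the capitals are 3 overlapping matches: the STAT3-type palindrome TTCCAGGAA from -136 to -128, counted with the start base as 1 and the base before it as -1, and 2 ISRE matches from -130 to -121 and from -124 to -115. In the Ifitm3 window 1 ISRE match lay at 3 to 12, a GAS match at 14 to 22 and a second ISRE match, which overlaps it, at 20 to 29. The other matches were the ISRE letters in both Trim30a windows and the GAS letters TTCACAGAA at 8 to 16 in the Ifi35 window. The windows of Xaf1, Ifi44, Lgals3bp and Tnfsf10 held none of the 3 sets of letters.

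Stat3 itself was counted in every library, at 114, 149 and 160 CPM in replicates 1, 2 and 3 of the Stat3KO beads and at 144, 175 and 179 CPM on the Ctrl beads. Its supernatant levels were 54.6, 74.2 and 79.8 CPM for Stat3KO, and for Ctrl 56.0, 65.2 and 59.6 CPM. The groups overlapped in both fractions (log2 fold change -0.24, adjusted p = 0.999 in bead-bound RNA and 0.20, adjusted p = 0.878 in supernatant, edgeR's quasi-likelihood test); reads of the whole gene are summed, which cannot reveal a loss of the floxed exons alone. The transcript of the tag, Gfp_L10a, was 12.1-fold higher in bead-bound RNA than in supernatant in Ctrl and 10.4-fold higher in Stat3KO. On the beads the leptin receptor gene Lepr lay at 9.78 to 13.5 CPM in Stat3KO and 5.84 to 13.2 CPM in Ctrl, and Cre at 1.51 to 2.91 and 2.04 to 3.21 CPM. Libraries held 20743217 to 41829907 counts. Replicate 1 stood apart from replicates 2 and 3 in every group, with chi-square statistics per gene of 22.8 to 68.6 against it and 5.55 to 14.6 between the other two, and counts of called genes are therefore also given without it.

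In bead-bound RNA 6 of the 10 genes were past the threshold in Stat3KO, all of them higher, and 0 were lower. Bst2, Rtp4 and Ifi44 differed most, at log2 fold changes of 5.54, 4.61 and 3.90, followed by Ifi35, Xaf1 and Tnfsf10 at 2.39, 2.37 and 1.68. Lgals3bp and Trim30a were above Ctrl in all 3 libraries without passing, and Ifi27 and Ifitm3 overlapped with Ctrl. Over all genes tested, 73 (0.421%) were called higher, 5 (0.0288%) were called lower, and 5.10% had all 3 Stat3KO libraries above all 3 Ctrl libraries, which 8 of the 10 genes did; 4.27% had them all below, which 0 of the 10 did. Their median log2 fold change was 2.02, against -0.01 over all genes; as the genes were chosen on this comparison, nothing is read from these counts. The number past the threshold was 5 without Stat3KO bead-bound replicate 1 and 7 with replicates 2 and 3 of both genotypes only.

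Bst2 (ENSMUSG00000046718, chromosome 8, 71534255 to 71537456 on GRCm38, minus strand) encodes tetherin, a membrane protein that holds budding virus particles to the cell. It was at 66.0, 39.3 and 34.6 CPM in replicates 1, 2 and 3 of the Stat3KO beads, from 1211 to 2097 counts. On the Ctrl beads it was at 1.25, 0.898 and 0.888 CPM, from 28 to 33 counts. The lowest Stat3KO library was far above the highest Ctrl library, and the fold change of 5.54 (SE 0.311, a 46.5-fold difference) was the 7th highest of 17354. Ifitm3 (ENSMUSG00000025492, chromosome 7, 141009586 to 141010770), which blocks the fusion of entering virus in endosomes, was at 2.33, 2.31 and 1.94 CPM in Stat3KO against 2.71, 1.28 and 2.18 CPM in Ctrl. The 2 groups overlapped around the same level, with a fold change of 0.10 (SE 0.315) that lay between -0.16 and 0.34 when single libraries were left out. Ifitm3 has closely similar family copies, among which its 50-base reads may be split.

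Rtp4 (ENSMUSG00000033355, chromosome 16, 23520291 to 23614222) encodes a receptor transporter protein, known as a chaperone that carries opioid receptors to the cell surface. It was at 37.3, 22.6 and 30.6 CPM on the Stat3KO beads against 1.21, 0.866 and 1.59 CPM in Ctrl. The groups did not overlap, and the fold change of 4.61 (SE 0.279, a 24.4-fold difference) was the 22nd highest. Its exons share 296 bases, 13.9% of their length, with Gm45338, a transcript annotated on the same strand, whose reads cannot be told apart from its own there.

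Ifi44 (ENSMUSG00000028037, chromosome 3, 151730922 to 151749960), a cytoplasmic protein used as a marker of interferon exposure, was at 8.68, 5.25 and 6.90 CPM on the Stat3KO beads against 0.375, 0.160 and 0.807 CPM in Ctrl. The Ctrl levels rest on 5 to 30 counts, so the fold change of 3.90 (SE 0.450) has the widest error of the 10. It ranged from 3.47 to 4.72 when single libraries were left out. Ifi35 (ENSMUSG00000010358, chromosome 11, 101448407 to 101458698), a leucine zipper protein that binds the interferon-induced protein Nmi, was at 15.9, 10.8 and 13.1 CPM in Stat3KO against 2.67, 2.12 and 2.77 CPM in Ctrl. Every Stat3KO library held more Ifi35 than every Ctrl library, with a fold change of 2.39 (SE 0.222). Ifi35 lies 508867 bases from the targeted Stat3 gene on the same chromosome, and 290 bases of its exons (16.8%) are shared with the antisense gene Gm11626, from which it cannot be told apart without strand. Ifi27 (ENSMUSG00000064215, chromosome 12, 103434211 to 103440239), a small protein of mitochondrial membranes in human cells, was at 34.9, 24.6 and 25.9 CPM in Stat3KO against 24.7, 21.0 and 14.7 CPM in Ctrl. The lowest Stat3KO library lay just under the highest Ctrl library, at a fold change of 0.50 (SE 0.219).

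**Figure D1:**
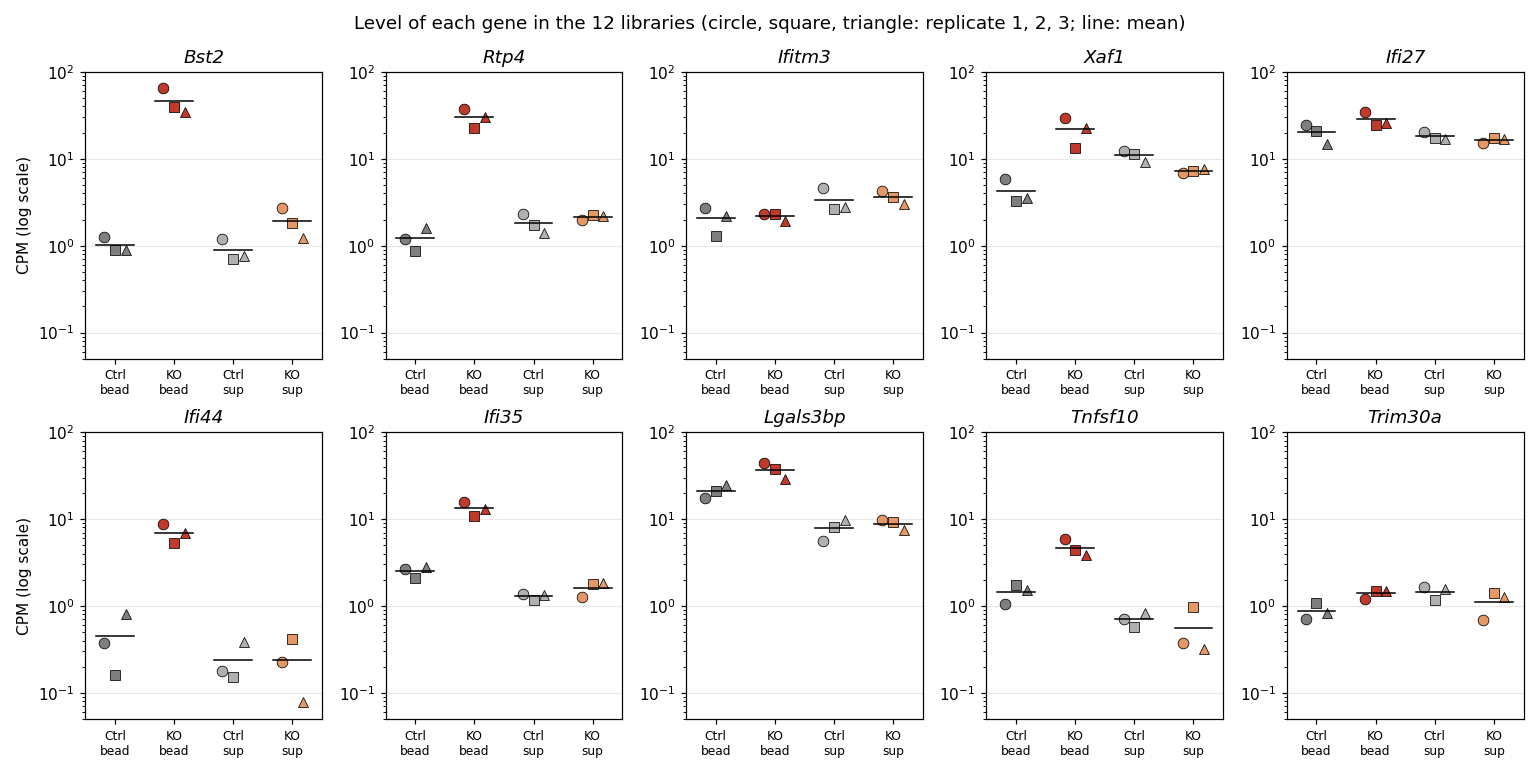
Level of each of the 10 genes in CPM (log axis) in the 12 libraries, by genotype and fraction; circles, squares and triangles are replicates 1, 2 and 3, and lines are group means. Bst2, Rtp4 and Ifi44 are high in the 3 Stat3KO bead-bound libraries alone, while Ifitm3 and Trim30a lie between 0.681 and 4.56 CPM in all 12 libraries.

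Xaf1 and Tnfsf10 act on apoptosis. Xaf1 (ENSMUSG00000040483, chromosome 11, 72301629 to 72313733), which binds the caspase inhibitor XIAP and counters it, was at 29.4, 13.2 and 22.8 CPM on the Stat3KO beads against 5.92, 3.27 and 3.55 CPM in Ctrl. The lowest Stat3KO library exceeded the highest Ctrl library, with a fold change of 2.37 (SE 0.322); Xaf1 was no longer past the threshold without Ctrl bead-bound replicate 3, at 2.25. Tnfsf10 (ENSMUSG00000039304, chromosome 3, 27317028 to 27342427), the death ligand TRAIL, was at 5.85, 4.36 and 3.86 CPM in Stat3KO against 1.04, 1.76 and 1.53 CPM in Ctrl. The groups did not overlap (fold change 1.68, SE 0.289), but Tnfsf10 fell short of the threshold when any 1 of the 6 libraries was left out, at fold changes of 1.50 to 1.83.

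Lgals3bp (ENSMUSG00000033880, chromosome 11, 118392751 to 118402092), a secreted glycoprotein that binds galectins, was at 44.4, 37.7 and 29.2 CPM on the Stat3KO beads against 17.4, 21.0 and 24.4 CPM in Ctrl. All Stat3KO libraries lay above all Ctrl libraries, at a fold change of 0.82 (SE 0.196) that did not pass in edgeR but did with DESeq2 (0.83), without the filter on low counts (0.82) and with replicates 2 and 3 only (0.54). Trim30a (ENSMUSG00000030921, chromosome 7, 104409025 to 104465193), a tripartite motif protein that restrains Toll-like receptor signalling in mouse, was at 1.20, 1.50 and 1.49 CPM in Stat3KO against 0.709, 1.09 and 0.834 CPM in Ctrl. Its Stat3KO libraries were all above Ctrl by a small margin, at a fold change of 0.66 (SE 0.331), on 17 to 57 counts, and its copies in the Trim30 cluster may share reads with it.

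Within the Stat3KO bead-bound group, replicate 1 held the highest level of 9 of the 10 genes, and replicate 2 that of Trim30a. The highest library exceeded the lowest by 1.20-fold for Ifitm3, 1.90-fold for Bst2 and 2.23-fold for Xaf1. The same replicate 1 had the lowest summed endothelium markers, 16.4 CPM against 132 and 93.5 CPM in replicates 2 and 3. It also had the highest summed neuron markers, 9401 CPM against 7078 and 7493 CPM. Their part in the spread of the 10 genes was not tested.

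Levels of different genes were compared per kilobase of exon. In Stat3KO bead-bound RNA tetherin led with 51.6 ± 18.7 CPM per kb (SD), apart from the next, Ifi27, at 19.4 ± 3.79. Rtp4 (14.2 ± 3.45 CPM per kb) and Lgals3bp (13.03 ± 2.67 CPM per kb) followed and overlapped with each other. Below them came Ifi35 at 7.68, Xaf1 at 4.65 and Ifitm3 at 3.24 CPM per kb, where neighbours overlapped. Ifi44 at 1.13 and Tnfsf10 at 0.891 CPM per kb overlapped with each other, and Trim30a was lowest at 0.339. On the Ctrl beads the order was different: Ifi27 led with 13.7 ± 3.47 CPM per kb, Lgals3bp stood at 7.35 and Ifitm3 at 3.04, each apart from the next. Bst2 was the fifth there at 1.12 ± 0.229 CPM per kb, overlapping with Ifi35 (1.46) above and Xaf1 (0.906) below. Ifi27 led in both supernatant groups as well, at 11.3 CPM per kb in Stat3KO and 12.4 in Ctrl, followed by Ifitm3 at 5.36 and 4.94, each apart from the next.

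The supernatant libraries come from the same pools as the bead-bound libraries, and the tag transcript was still counted in them. They were not used to choose the genes and give the test of the same genotype difference outside the pull-down. There 0 of the 9 tested genes passed with edgeR in either direction, 0 with DESeq2 and 2, Bst2 and Xaf1, at an unadjusted p under 0.05. Over all 18547 genes tested 0 (0%) were called higher and 2 (0.0108%) lower, and 6.20% had an unadjusted p under 0.05. With replicates 2 and 3 only, 0 of the 9 passed as well. The median log2 fold change of the 9 was 0.14, against -0.003 over all genes.

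Bst2 was at 2.73, 1.80 and 1.23 CPM in Stat3KO supernatant and at 1.20, 0.705 and 0.764 CPM in Ctrl. All 3 Stat3KO libraries lay above all 3 Ctrl libraries, an arrangement that 6.40% of all genes showed. The fold change of 1.16 (SE 0.340) did not pass (adjusted p = 0.570, edgeR's quasi-likelihood test with Benjamini-Hochberg adjustment); over the alternatives it was 0.82 to 1.38 with adjusted p from 0.0271, without the filter on low counts, to 1. The levels rest on 27 to 108 counts. Xaf1 was at 6.86, 7.16 and 7.63 CPM in Stat3KO supernatant and at 12.3, 11.4 and 9.22 CPM in Ctrl. Here all 3 Stat3KO libraries lay below all 3 Ctrl libraries, as for 6.26% of all genes, opposite to bead-bound RNA. The fold change of -0.61 (SE 0.149) did not pass either (adjusted p = 0.483, edgeR's quasi-likelihood test with Benjamini-Hochberg adjustment; -0.72 to -0.50 and adjusted p from 0.0545 to 1 over the alternatives). Markers of microglia and oligodendrocytes, and some of astrocytes, lay lower in Stat3KO in the same libraries. The 10 microglia markers summed to 95.0 to 113 CPM in Stat3KO and 129 to 141 CPM in Ctrl, and the 8 oligodendrocyte markers to 4734 to 5381 and 5741 to 7273 CPM. The sum of the 8 astrocyte markers overlapped, at 1199 to 1400 CPM and 1268 to 1404 CPM, but 5 of them had an unadjusted p under 0.05 and their median fold change was -0.30. The lowest fold change of the 8, and named for that, was that of the water channel gene Aqp4. Aqp4, at 29.6 to 38.7 CPM in Stat3KO and 55.2 to 69.4 CPM in Ctrl, was lower in every library (-0.83, adjusted p = 0.0895, edgeR's quasi-likelihood test). Of the 8 astrocyte markers 2 went the other way, with fold changes of at most 0.15. No marker of these 3 lists was at 0 in a group, 0 passed the test, and their part in the Xaf1 difference was not tested.

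The other 7 tested genes overlapped between genotypes in supernatant. Rtp4 was at 1.99, 2.24 and 2.21 CPM in Stat3KO against 2.35, 1.71 and 1.41 CPM in Ctrl, where Ctrl replicate 1 was the highest of the 6. Ifi35 was at 1.26, 1.80 and 1.82 CPM against 1.37, 1.18 and 1.34 CPM, and Tnfsf10 at 0.378, 0.970 and 0.316 CPM against 0.709, 0.579 and 0.836 CPM. Their fold changes were 0.25 (SE 0.241), 0.32 (SE 0.254) and -0.31 (SE 0.435), with adjusted p = 0.901, 0.897 and 0.930 by edgeR's quasi-likelihood test. Lgals3bp stood at 9.77, 9.33 and 7.43 CPM against 5.62, 8.19 and 9.67 CPM (0.16, SE 0.197), and Ifi27 at 15.4, 17.5 and 16.8 CPM against 20.6, 17.2 and 16.9 CPM (-0.14, SE 0.124). Ifitm3, at 4.26, 3.63 and 3.00 CPM against 4.56, 2.67 and 2.82 CPM, differed by 0.14 (SE 0.237), and Trim30a, at 0.681, 1.41 and 1.26 CPM against 1.64, 1.16 and 1.55 CPM, by -0.38 (SE 0.315). These 4 genes had adjusted p of 0.897 to 0.943 by edgeR's quasi-likelihood test. Ifi44 had 9, 18 and 2 counts in Stat3KO supernatant and 4, 6 and 16 in Ctrl; a difference was not detectable at this depth, and no fold is given.

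**Figure D2:**
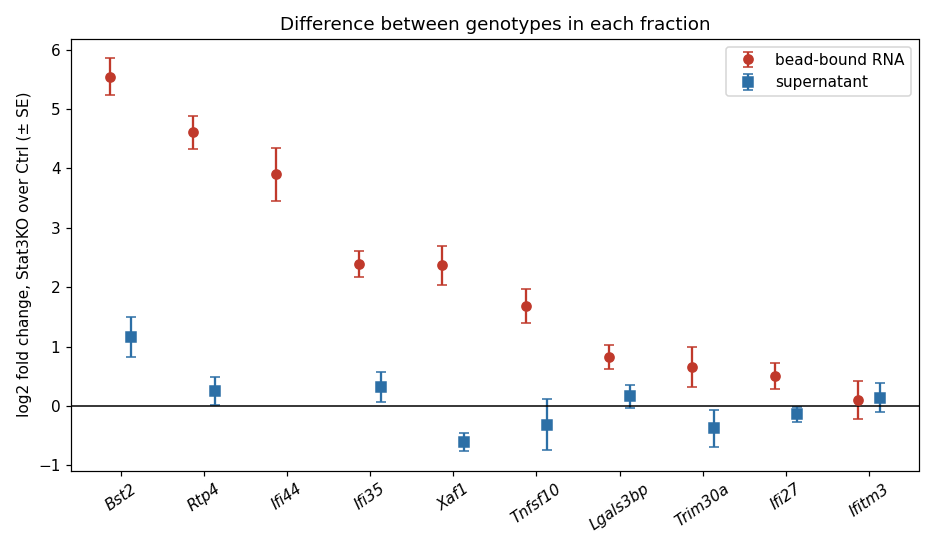
Log2 fold change of Stat3KO over Ctrl with its standard error for each gene, in bead-bound RNA (circles) and supernatant (squares), each from 3 against 3 libraries. The bead-bound values fall from 5.54 for Bst2 to 0.10 for Ifitm3, while the supernatant values lie between -0.61 (Xaf1) and 1.16 (Bst2); Ifi44 has no supernatant value.

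Bead-bound and supernatant RNA of the same pools were compared within each genotype; these comparisons share the bead-bound libraries on which the genes were chosen, so folds are given as a description. In Ctrl, 3 of the 10 genes were higher on the beads and 1 was lower, among 20.7% higher and 21.2% lower of all 18036 genes tested. All 3 bead-bound libraries were above all 3 of supernatant for 3 of the 10 (26.1% of all genes) and below them for 2 (28.1%). Lgals3bp (1.41, SE 0.209), Tnfsf10 (1.04, SE 0.311) and Ifi35 (0.96, SE 0.227) were the higher ones and Xaf1 (-1.37, SE 0.251) the lower. Bst2 (0.21, SE 0.334) and Ifi27 (0.15, SE 0.199) had ratios near 1 that did not pass. Rtp4 at -0.55, Ifitm3 at -0.69, Trim30a at -0.70 and Ifi44 at 0.90 did not pass. Ifitm3 passed as lower with the pool as a block (-0.70) and without Ctrl bead-bound replicate 1 (-0.93), and Trim30a with library totals (-0.86). Tnfsf10 fell short in 5 of the 6 fits without 1 library and with library totals, and Ifi35 without Ctrl supernatant replicate 2, which left 1 gene higher. With replicates 2 and 3 only, 3 of the 10 were higher and 1 lower. Markers of other cells differed between the same fractions: 8 of 10 endothelium markers were higher on the beads (median 1.81), while 8 of 10 microglia (-1.62), 6 of 8 astrocyte (-1.05) and 8 of 8 oligodendrocyte markers (-1.40) were lower. Their part in the ratios of the 10 genes was not tested.

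In Stat3KO 8 of the 10 genes were higher on the beads and Ifitm3 was lower, among 14.7% higher and 17.3% lower of all 18107 genes tested. All bead-bound libraries were above supernatant for the same 8 (23.9% of all genes) and below it for Ifitm3 (25.0%). Ifi44 had the largest ratio (4.71, SE 0.410), then Bst2 (4.56, SE 0.334), Rtp4 (3.80, SE 0.214), Ifi35 (3.02, SE 0.228) and Tnfsf10 (3.01, SE 0.399). The ratios of Ifi44, Bst2 and Rtp4 lay above that of the tag itself, Gfp_L10a, at 3.38 (SE 0.328), a difference that was not tested. Lgals3bp (2.05, SE 0.186), Xaf1 (1.59, SE 0.258) and Ifi27 (0.77, SE 0.160) were the others that passed as higher. Ifitm3, at -0.74 (SE 0.223), fell short without Stat3KO supernatant replicate 1 or 2 or bead-bound replicate 2 or 3 and with all 12 libraries in the fit, and Trim30a was at 0.31 (SE 0.332). With replicates 2 and 3 only, 8 of the 10 were higher and 1 lower. Endothelium markers were again higher on the beads, 5 of 10 passing (median 1.84), and 9 of 10 microglia (-1.57), 8 of 8 astrocyte (-0.97) and 8 of 8 oligodendrocyte markers (-1.27) were lower; their part was not tested here either. With the pool as a block the calls on the 10 genes were the same, while those over all genes went from 2669 higher and 3135 lower to 4290 and 4709.

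**Figure D3:**
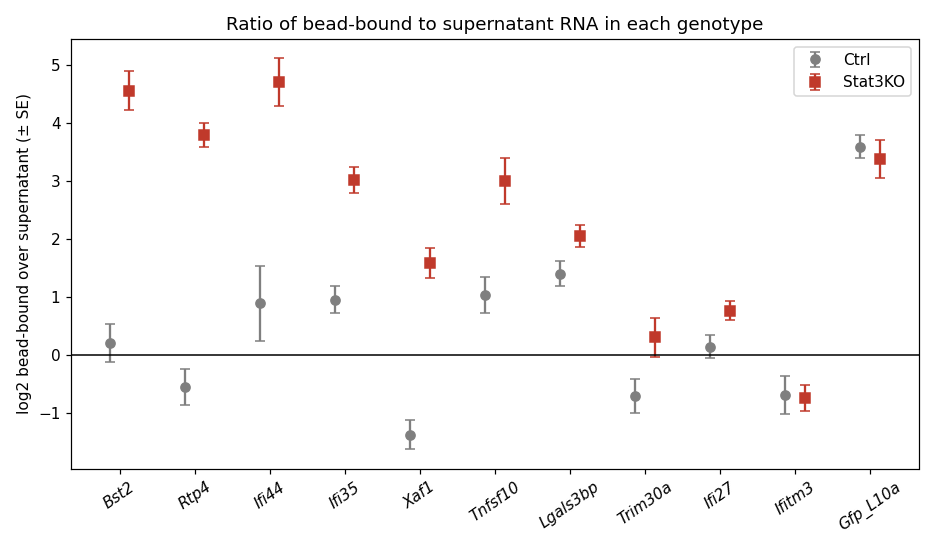
Log2 ratio of bead-bound to supernatant RNA with its standard error in Ctrl (circles) and Stat3KO (squares) for the 10 genes and for the tag transcript Gfp_L10a. The tag lies at 3.60 in Ctrl and 3.38 in Stat3KO, whereas Bst2 lies at 0.21 in Ctrl and 4.56 in Stat3KO; Ifitm3 lies below 0 in both.

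The genotype difference of that ratio, from all 12 libraries, holds the bead-bound comparison on which the genes were chosen and is a description. It was past the threshold for 4 of the 10 genes, against 37 of 19122 genes (0.193%) called higher and 2 (0.0105%) lower. It was 4.35 for Bst2 (SE 0.478), 4.35 for Rtp4 (SE 0.360), 2.97 for Xaf1 (SE 0.381) and 2.07 for Ifi35 (SE 0.307). All 4 were also past it with replicates 2 and 3 only, a choice made after seeing the data, at 1.76 (Ifi35) to 4.28 (Bst2). Xaf1 was lower on the beads than in supernatant in Ctrl and higher in Stat3KO. Ifi44 (3.82, SE 0.800) and Tnfsf10 (1.98, SE 0.525) had large values that did not pass, with Ifi44 passing with the pool as a block (3.87) and without Ctrl bead-bound replicate 3 (4.65), and Tnfsf10 without Stat3KO supernatant replicate 2 (2.69). Both also passed without the filter on low counts. Trim30a at 1.03, Lgals3bp at 0.65, Ifi27 at 0.64 and Ifitm3 at -0.04 did not pass.

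The genes upstream of the 10 were read from lists written with earlier results of these data known. Among the ligands, 0 of 21 interferon genes reached the filter in any fraction. Ifnb1 had 0 counts in all 12 libraries, and of the 20 ligands other than Ifng 7 had any count: Ifnk with at most 5 in a library, Ifna16 and Ifnab with at most 3, and Ifna2, Ifna6, Ifna7 and Ifne with 1; a floor of 3 counts stands for 0.0693 to 0.133 CPM here and covers counting error only. Ifng had 13, 3 and 0 counts in Stat3KO supernatant and at most 2 in every other library. On the beads of both genotypes 0 of the ligands was detected above that floor.

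Of 16 receptor and signalling genes, 4 were called higher in Stat3KO bead-bound RNA and 0 lower. They were Usp18, a protease that removes ISG15 and damps the receptor (3.62), and the transcription factors Irf7 (2.39), Irf1 (1.47) and Irf9 (1.10); Irf9 fell short without Ctrl bead-bound replicate 2. The receptor genes were not among them: Ifnar1 was at -0.24, Ifnar2 at -0.40, Ifngr1 at -0.04 and Ifngr2 at -0.15, and Stat2 at 0.67. Ifnar1 itself stood at 21.8 ± 3.03 CPM on the Stat3KO beads and 25.8 ± 0.293 CPM in Ctrl. The median of the 16 was 0.0063. Of 44 other interferon-induced effectors 41 were tested, and 16 were called higher and 0 lower, with a median of 1.49. The largest were the RNA-binding Ifit1 (5.01), the ubiquitin-like Isg15 (4.86), the GTPase Gbp3 (4.77) and Oasl2 of the oligoadenylate synthetase family (4.48), and 12 to 14 of the 16 kept their call when 1 library was left out. Isg15 had 18.6 ± 7.47 CPM in Stat3KO against 0.648 ± 0.215 CPM on the Ctrl beads. Over all genes tested in bead-bound RNA 0.421% were called higher and 0.0288% lower. As the lists were written with earlier results of these data known, nothing is read from their counts.

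**Figure D4:**
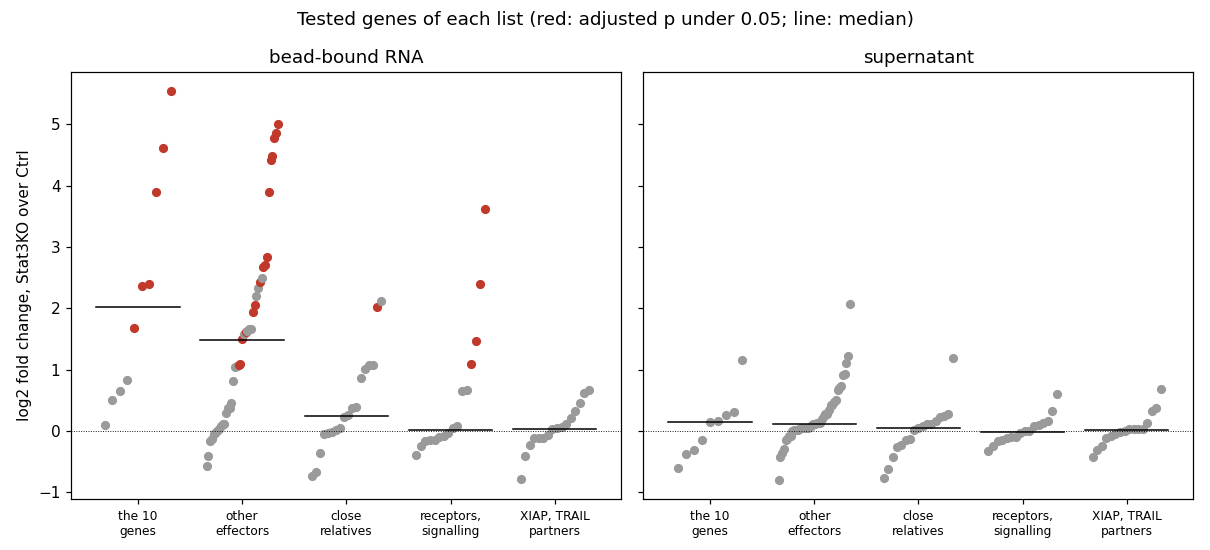
Log2 fold change of Stat3KO over Ctrl of each tested gene, by list, in bead-bound RNA and in supernatant; red points passed edgeR's test at an adjusted p under 0.05 and lines are list medians. In bead-bound RNA 6 of the 10 genes and 16 of 41 other effectors passed, all higher, against 0.421% called higher over all genes tested. In supernatant 0 genes of these lists passed, against 0% called higher and 0.0108% lower over all genes tested. The genes and lists were chosen with earlier results of these data known.

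Of 27 close relatives of the 10 genes 18 were tested in bead-bound RNA, 1 was called higher (Trim21, a cytosolic antibody receptor of the tripartite motif family, at 2.03) and 0 lower, with a median of 0.24. Nmi, the partner of Ifi35, had 5.96 ± 1.21 CPM in Stat3KO against 2.93 ± 0.343 CPM in Ctrl, and did not pass (1.02, SE 0.234). Ifi27l2a, a copy of Ifi27, was at 1.07 (SE 0.397) and did not pass. In the families of Ifitm3 and Trim30a, Ifitm1 (-0.73), Ifitm2 (0.01), Ifitm6 (-0.36), Ifitm10 (-0.03) and Trim30d (0.37) did not pass; of the family of Rtp4, Rtp1 was at 0.23 and Rtp2 at -0.67. Ifi44l had 0 counts in all libraries. Of the 16 partners of Xaf1 and Tnfsf10 0 passed in edgeR and 3 had an unadjusted p under 0.05, as did 4.11% of all genes tested. Xiap, the target of Xaf1, was at 0.02 (SE 0.159), and Tnfrsf10b, the mouse TRAIL receptor, at 0.62 (SE 0.568). In supernatant 0 genes of any of these lists passed in edgeR, while 1 of 17 relatives, 1 of 16 partners, 1 of 16 signalling genes and 6 of 42 other effectors had an unadjusted p under 0.05; for relatives, partners and signalling genes that is near the 6.20% of all genes.

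Markers of other cell types were set beside the bead-bound values. Microglia markers summed to 34.5 to 49.9 CPM in Stat3KO and 43.3 to 66.2 CPM on the Ctrl beads, and all 10 had a fold change below 0 without 1 passing. Endothelium markers summed to 16.4 to 132 CPM in Stat3KO and 59.3 to 119 CPM in Ctrl, mural cell markers to 37.3 to 125 and 70.4 to 113 CPM, and astrocyte markers to 702 to 922 and 679 to 1233 CPM. The groups overlapped for each of these lists. Lymphocyte markers summed to 4.33 to 10.7 CPM in Stat3KO, with Cd8a, Nkg7, Gzmb and Ms4a1 at 0. In Ctrl they summed to 6.41 to 7.76 CPM, with Cd3g, Cd8a, Nkg7, Ms4a1 and Klrb1c at 0. Blood myeloid markers summed to 1.64 to 2.97 CPM in Stat3KO, with Ly6c2 and Elane at 0. In Ctrl they summed to 1.40 to 3.75 CPM, with Ly6c2 and Cd209a at 0. No genes of the microglia, endothelium, mural cell, astrocyte, oligodendrocyte, neuron, tanycyte, fibroblast, lymphocyte or myeloid lists passed the test between genotypes in either fraction. The 12 hypothalamic markers, summing to 592 to 1240 CPM in Stat3KO and 827 to 1025 CPM on the Ctrl beads, were all counted in each group, and 2 of them passed, in opposite directions. Agrp, an appetite-driving peptide of arcuate neurons, was higher on the Stat3KO beads at 292 to 724 CPM against 120 to 139 CPM (1.84, SE 0.289, adjusted p = 0.0198, edgeR's quasi-likelihood test). Pomc, the precursor of appetite-suppressing peptides, was lower at 102 to 142 CPM against 470 to 576 CPM (-2.03, SE 0.171, adjusted p = 0.000166, same test). In supernatant 0 of the 12 passed, while 4 had an unadjusted p under 0.05, against 6.20% of all genes tested. Agrp was there above Ctrl in every Stat3KO library, as for 6.40% of all genes (1.59, adjusted p = 0.0895, same test). Pomc was below Ctrl in every Stat3KO library, as for 6.26% of all genes (-0.82, adjusted p = 0.197, same test). The part of all these cell types in the bead-bound differences of the 10 genes was not tested.

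**Figure D5:**
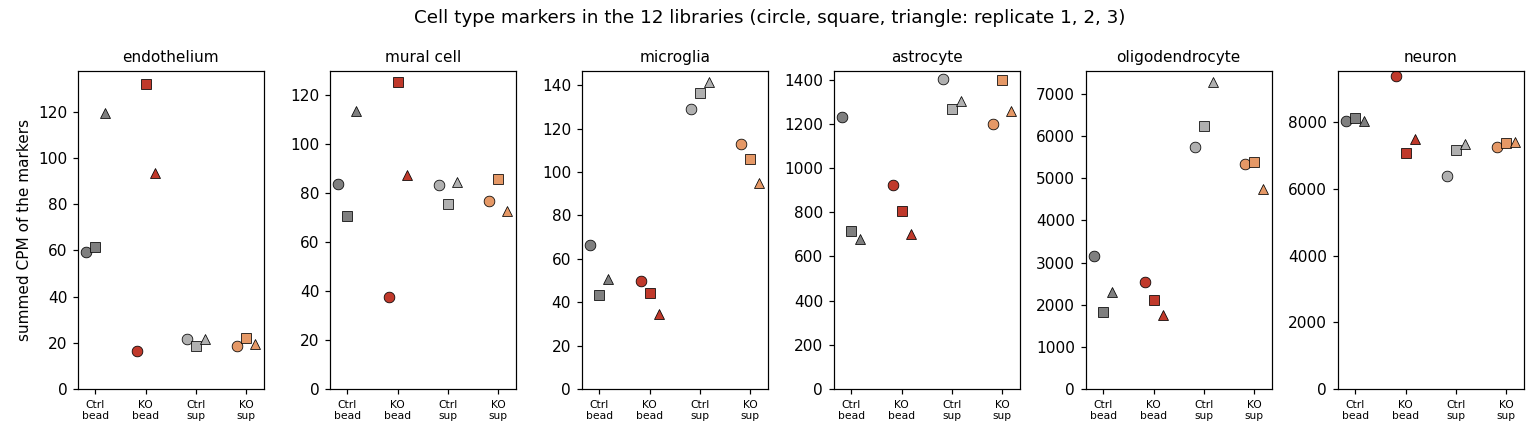
Summed level of the markers of 6 cell types in CPM in the 12 libraries; circles, squares and triangles are replicates 1, 2 and 3. In bead-bound RNA the genotypes overlap for every list, with replicate 1 of Stat3KO lowest in endothelium at 16.4 CPM; in supernatant microglia and oligodendrocyte markers of Stat3KO lie below those of Ctrl.

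The profiles of the 10 genes over the 12 libraries were compared by Pearson's r on log2 CPM; the libraries fall into 4 groups and share pools, so r is a description. Bst2 and Rtp4 had r = 0.974, Ifi44 and Ifi35 0.952, and Bst2 and Ifi35 0.931. Lgals3bp and Tnfsf10, both higher on the beads in Ctrl, had r = 0.914. Xaf1 followed Rtp4 at 0.839 and Lgals3bp at 0.259. Trim30a stayed between -0.09 and 0.52 with the other 9 genes, and Ifitm3 was between -0.69 (Lgals3bp) and 0.14 (Xaf1). Of the 13388 genes compared, those outside the 10 with the profile nearest to Bst2 were Oasl2 (r = 0.986), the GTPase Irgm1 (0.983), the ADP-ribosyltransferase Parp10 (0.978), H2-K1 (0.978) and Igtp (0.977). Oasl2 was at 123, 106 and 125 CPM on the Stat3KO beads and between 3.32 and 7.81 CPM in the other 9 libraries. Igtp, an immunity-related GTPase, was at 74.4, 48.1 and 52.0 CPM and between 1.54 and 5.10 CPM, and H2-K1, a class I antigen-presenting molecule, at 100.3, 63.7 and 52.5 CPM and between 5.36 and 9.05 CPM. Igtp and H2-K1 were highest in replicate 1, as Bst2 was, while Oasl2 was highest in replicate 3.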

How the data were processed

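Values are the counts of reads per gene that the authors deposited, whole numbers with no scaling. The submitters' processing notes name STAR 2.5.3a and mm10; how reads were counted, with which annotation and whether by strand is not given in the sources used here. Per the labels' protocols, polyA RNA (integrity number 8 or higher) was read in 50 cycles, single end, 4 libraries per lane. Names and coordinates came from GENCODE M21 on GRCm38 (52403 entries matched, 233 unmatched, 2 transgenes), and promoter windows from RefSeq on GRCm38.p6. All columns were mapped to samples, and 0 were left over.

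The genes and lists were chosen with earlier results of these data known. Tests were run across all genes in R 4.3.3 with edgeR 4.0.16 (filterByExpr, minimum count 10 and minimum total 15; TMM scaling; quasi-likelihood fit; Benjamini-Hochberg adjusted p under 0.05 over all genes tested, 2-sided). Each comparison of a pair of groups used its 6 libraries, and the difference of ratios all 12. The SE is the log2 fold change divided by the square root of F. Profiles used log2 CPM with a prior count of 2 and genes with a mean log2 CPM of at least 1. DESeq2 1.42.0 was an alternative, as were other scalings, no filter, all 12 libraries, replicate blocks and leaving out each library.

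Text names all 10 genes, the label checks, detected ligands with the main receptors and Stat2, family relatives, up to 4 called genes of each other list with the largest change, and the 5 profiles nearest to Bst2. A further gene of the signalling list is not reported here. Xiap, Tnfrsf10b and Aqp4 were named outside this rule, after their values were seen. Bead-bound and supernatant libraries of 1 number come from 1 pool per the series design, and their deviations from the group means correlated at 0.352 to 0.600 in all 6 pools, so the number pairs them. Replicates are separate pools of mice. Depth speaks to counting error only, since reads carry no molecular identifiers.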

Additional observations from a re-analysis of the deposited data

Results flagged for a closer look

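The genotype difference of the log2 ratio of bead-bound to supernatant RNA was past edgeR's threshold, as higher in Stat3KO, for 4 of the 10 genes. It was 4.35 for Bst2, 4.35 for Rtp4, 2.97 for Xaf1 and 2.07 for Ifi35. It also passed for 13 genes among the relatives, signalling genes and other effectors and, as lower in Stat3KO, for Pomc of the hypothalamic markers at -1.22. Among the relatives and the signalling genes these were Trim21 at 1.91, Irf7 at 1.78 and Usp18 at 3.28. Among the other effectors they were Isg15 at 4.83, Ifit1 at 4.54, Gbp3 at 4.42, Oasl2 at 3.74, Igtp at 2.79, Irgm1 at 2.60, Ifit3 at 2.58, Ifit2 at 1.50, Eif2ak2 at 1.27 and Parp12 at 1.03. Over all 19122 genes tested 37 (0.193%) passed as higher and 2 (0.0105%) as lower. The values given here share the bead-bound libraries on which the 10 genes were chosen, so they are a description and not a test of these genes. The lists were written with earlier results of these data known.

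Xaf1 had fold changes of opposite sign in the 2 fractions. Every Stat3KO library was above every Ctrl library in bead-bound RNA, the comparison on which the genes were chosen, as for 5.10% of all genes. In supernatant every Stat3KO library was below every Ctrl library, as for 6.26% of all genes. The supernatant log2 fold change was -0.61 and did not pass (adjusted p = 0.483, edgeR's quasi-likelihood test).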

How the results depend on the processing

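Over all alternatives 0 of the 10 genes were called lower between genotypes. The number called higher in bead-bound RNA stayed between 4 and 7, with 4 to 5 when 1 library was left out, and the fold changes of Bst2 (5.21 to 5.72) and Rtp4 (4.39 to 4.87) moved little. Without the low-count filter 1 gene, Bst2, was called higher in supernatant. Lgals3bp in supernatant turned to -0.10 with replicates 2 and 3 only, a choice made after seeing the data, and to -0.025 without Ctrl supernatant replicate 1, the lowest of -0.025 to 0.34 over fits without 1 library. In Ctrl, bead-bound against supernatant, 2 genes were called lower with library totals and with the pool as replicate block; leaving out 1 library gave 1 to 3 higher and 1 to 2 lower. In Stat3KO 0 were called lower with all 12 libraries in the fit, and 0 to 1 without 1 library.

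Counts over all genes moved more. On the beads 133 were higher and 50 lower without the filter, 16 lower with DESeq2, 9 lower with all 12 libraries, 3 lower with the replicate block, and 273 higher and 894 lower with replicates 2 and 3 only; leaving out 1 library gave 53 to 69 higher and 3 to 13 lower. In supernatant 46 were higher and 157 lower without the filter, 14 and 29 with DESeq2, 2 higher with the replicate block, and 200 and 788 with replicates 2 and 3 only; 1 library left out gave 0 to 6 and 2 to 37. In Ctrl 2387 were higher on the beads with library totals, which shift the median by -0.157, and 2215 to 4234 without 1 library. In Stat3KO the pool block gave 4290 and 4709, and 1 library left out 1201 to 2921 and 1678 to 3489. The difference of ratios gave 76 higher and 21 lower without the filter, 4 lower with the pool block and with replicates 2 and 3 only, and 24 to 35 and 0 to 3 without 1 library. The cause of these changes was not tested.

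Between genotypes the replicate numbers gave no clear pairing of pools. Deviations of the same number correlated at 0.251, -0.0668 and 0.295 in bead-bound RNA and at 0.226, 0.125 and 0.0056 in supernatant. Replicate 1 against replicates 2 and 3 of the other genotype gave -0.378 to -0.0224 in bead-bound RNA and -0.212 to -0.102 in supernatant. Whether the replicate 1 libraries of both genotypes share more than their number was not tested. With the replicate number as a block 5 of the 10 genes were higher in bead-bound RNA, Tnfsf10 falling short. With the pool as a block no call on the 10 genes changed other than those given above. Depth limits Ifi44 in supernatant, at 2 to 18 counts, and Trim30a, at 17 to 65 counts.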
